A study of Mus musculus with 2 samples.

Results

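Chemokines are small secreted proteins that guide migrating cells, and their receptors are G protein-coupled receptors on the cell surface. The ligands are named after the spacing of their first cysteines (CC, CXC, CX3C and XC). A further set of atypical receptors binds chemokines without the usual G protein signal and can remove them from the tissue. In forming vessels the family is best known for Cxcl12 and its receptor Cxcr4, which guide endothelial cells, and in tissue macrophages for the fractalkine receptor Cx3cr1.

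The family was examined in GFP positive cells sorted from E15.5 kidneys (Theiler stage 23) of CD-1 mice carrying the Tg(TIE2GFP)287Sato transgene, in which the Tie2 promoter drives GFP. The sex of the embryos was unknown. There was 1 group of 2 samples, each a pool of about 5 to 10 kidneys dissociated with trypsin, and each was hybridized to 1 Affymetrix 3' expression array after 2 rounds of amplification. The sample titles carry the name Flk1, and the source label names arterial and venous endothelium of the kidney although whole kidneys were dissociated. Tie2 (Tek) is a receptor of endothelium that is also known from some blood cells, so the reporter need not mark endothelium alone. Nothing in the labels says that the pools came from separate litters, and the spread between the arrays may be technical.

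Members were all genes with a chemokine or chemokine receptor symbol (Ccl, Cxcl, Cx3c, Xcl1, Xcr1, Ccr, Cxcr, Ackr1 to Ackr4 or Ccrl2) on probe sets annotated to a single gene. This gave 54 of the 18193 genes on the array, with 33 ligands and 21 receptors, measured by 86 probe sets. Where a gene had several probe sets, the one with the highest mean log2 intensity was used. Values are the deposited intensities in arbitrary units on a linear scale. A gene was called above background when it exceeded the limit on both arrays, 198.9 in replicate 1 and 203.9 in replicate 2. The limit was the 95th percentile of 86 probe sets for olfactory, vomeronasal and taste receptors. Since probes bind with unequal strength, genes were not ranked against each other by intensity. With 1 group of 2 arrays there is no test, and the differences below describe these arrays.

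Of the 54 members, 28 (51.9%) were above background on both arrays, against 61.2% of all genes. The share was larger for genes with several probe sets, among members and among all genes. Among the 34 members with 1 probe set 15 were above background (44.1%, against 44.6% of all such genes), and among the 20 with several it was 13 (65.0%, against 78% of all such genes). By probe set, 36 of 86 (41.9%) were above background, against 55.1% of all probe sets with 1 gene. As a family, the chemokine genes were therefore no more often above background than other genes. Ligands and receptors had like shares, with 17 of 33 (51.5%) and 11 of 21 (52.4%). Within the receptors all 5 atypical receptors were above background, and 6 of 16 conventional receptors were (37.5%). In these pools fewer cells of a type and less RNA per cell cannot be told apart.

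**Figure D1:**
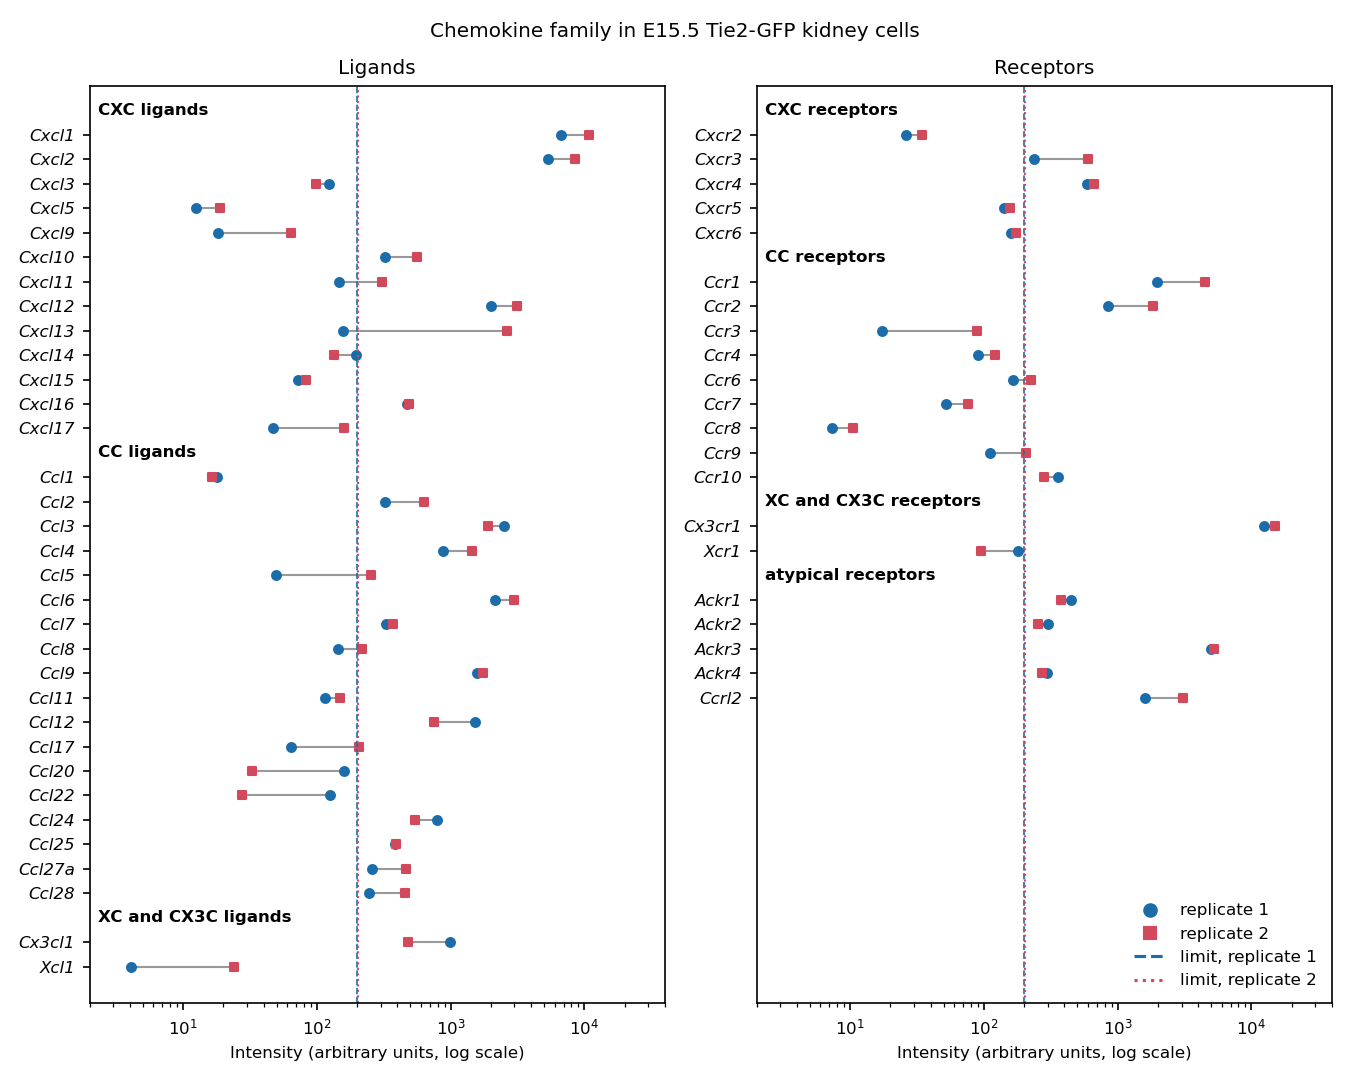
Intensity of each of the 54 members in replicate 1 (blue circles) and replicate 2 (red squares), in arbitrary units on a log scale, with the background limits of 198.9 and 203.9 as vertical lines and ligands at the left. All 5 atypical receptors lie above the limits, and 7 members, among them Cxcl13, pass them in replicate 2 only.

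Among the CXC ligands 5 of 13 were above background on both arrays. Cxcl12, the ligand that guides endothelial and blood progenitor cells, gave 2018 in replicate 1 and 3138 in replicate 2. A second probe set of Cxcl12 gave 1286 and 4004, and another was below the limit (122.7 and 82.5). The size of the difference between the pools for this gene therefore depended on the probe set, although both probe sets above background were higher in replicate 2.

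Cxcl1 and Cxcl2, neutrophil attractants that are rapidly induced by inflammatory signals, were above background on both arrays. Cxcl1 gave 6656 and 10860.4, and its other probe sets gave 2350 and 3717, and 2087 and 2776, so all 3 were above background. Cxcl2 gave 5368 and 8569.8. Their close relatives Cxcl3 (123.6 and 98.7) and Cxcl5 (12.4 and 19.0) were below the limit on both arrays. In the mouse gene table (GRCm38.p6) these members form 1 cluster in the order Cxcl5, Cxcl3, Cxcl15, Cxcl1, Cxcl2, with genes that are not members left out. Of these members only the last pair was above background, and Cxcl15 was below it (72.2 and 83.6).

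The promoters of Cxcl1, Cxcl2 and Cxcl3 are shown because these neighbours fell on different sides of the limit. All of them hold the same letters just before the start. The stretches below are RefSeq sequence of GRCm38.p6, 120 bases ending at the base before the start, with matches on either strand to an NF-kB-like motif (GGG, any 2 bases, then TTTCC) in capitals. They lie at chr5:90891125-90891244, chr5:90903779-90903898 and chr5:90785981-90786100, each on the plus strand.
Cxcl1: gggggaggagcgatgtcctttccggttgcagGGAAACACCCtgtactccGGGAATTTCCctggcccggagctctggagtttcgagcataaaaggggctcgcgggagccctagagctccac
Cxcl2: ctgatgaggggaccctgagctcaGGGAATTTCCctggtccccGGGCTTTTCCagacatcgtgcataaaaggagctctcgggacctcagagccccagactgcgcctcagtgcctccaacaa
Cxcl3: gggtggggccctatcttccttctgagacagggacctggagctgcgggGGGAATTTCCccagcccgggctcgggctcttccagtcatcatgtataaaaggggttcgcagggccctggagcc
The letters GGGAATTTCC stood at positions -71 to -62 relative to the start in Cxcl1, -97 to -88 in Cxcl2 and -73 to -64 in Cxcl3. Cxcl3 held them too, and its 1 probe set was below the limit on both arrays. The part of these letters in the signals was not tested.

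The same motif was searched in the 300-base windows (250 bases before to 50 after the start) of all genes. It was in 1.89% of 27025 genes with a window and in 6 of the 41 members that have one (14.6%). Of these 6 members 3 were above background on both arrays (Cxcl1, Cxcl2 and Ccl9) and 3 on neither (Cxcl3, Ccl20 and Ccr3). Ccl9, a CC ligand of macrophages, is shown as the member above background that held this motif together with the AP-1-like motif TGANTCA, which was in 17.1% of members and 8.97% of genes. Its stretch lies at chr11:83578637-83578756 on the minus strand.
Ccl9: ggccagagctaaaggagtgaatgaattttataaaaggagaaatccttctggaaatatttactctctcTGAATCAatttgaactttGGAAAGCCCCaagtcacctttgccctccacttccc
The capitals mark the AP-1-like match at -53 to -47 and the NF-kB-like match at -35 to -26. The ETS-like motif GAGGAAG was in 14.6% of members and 15.4% of genes, a like share. No matches of the 3 motifs overlapped in the members. A match is a description of letters and not of binding.

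The remaining CXC ligands above background were Cxcl10 and Cxcl16. Cxcl10, an interferon-induced ligand of Cxcr3, gave 325.0 and 563.3, and its cluster neighbour Cxcl9 was below the limit (18.1 and 63.6). Cxcl16, a ligand made as a transmembrane protein, was nearly equal on the arrays (475.7 and 487.4). Its second probe set was also above background, at 223.6 and 302.8. Cxcl11 (146.3 and 305.4) and Cxcl13 (156.9 and 2635) passed the limit in replicate 2 only. Cxcl13, which attracts B cells through Cxcr5, was at least 12.96-fold higher in replicate 2, taking the limit as its level in replicate 1. Its second probe set gave 141.3 and 508.8, again above the limit in replicate 2 only. Cxcl14 (196.4 and 135.0) lay just under the limit in replicate 1, and Cxcl17 gave 47.4 and 158.7.

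CC ligands were above background for 11 of 18 genes, a share like that of all genes (61.2%). Several lie in a pair of gene clusters. In the first, ordered Ccl2, Ccl7, Ccl11, Ccl12, Ccl8, Ccl1, the Ccr2 ligands Ccl2 (322.6 and 627.1), Ccl7 (330.7 and 370.8) and Ccl12 (1525 and 752.0) were above background. Ccl8 (143.2 and 218.6) passed in replicate 2 only, and the eosinophil attractant Ccl11 (114.0 and 148.6) and Ccl1 (17.9 and 16.6) on neither array. Ccl2 and Ccl12 went opposite ways between the pools, since Ccl2 was 1.90-fold higher in replicate 2 and Ccl12 was 2.07-fold higher in replicate 1.

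In the second cluster, with members ordered Ccl5, Ccl9, Ccl6, Ccl3, Ccl4, every member but Ccl5 was above background on both arrays. Ccl3 and Ccl4, the macrophage inflammatory proteins, gave 2508 and 1897, and 883.8 and 1436. Ccl6 gave 2130 and 2961, with a second probe set at 654.7 and 916.5. Ccl9 gave 1587 and 1750.4, while its second probe set was below the limit (121.2 and 122.8). Ccl5, known from T cells and activated macrophages, passed in replicate 2 only (49.9 and 252.7).

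Of the other CC ligands above background, the eosinophil attractant Ccl24 gave 796.9 and 542.8, and Ccl25, a thymic ligand of Ccr9, gave 385.8 and 391.0, with a second probe set below the limit (194.1 and 156.0). Ccl28, a mucosal ligand of Ccr10, gave 246.7 and 453.2 with 1 of its 3 probe sets, and the other two gave 107.3 and 73.4, and 158.8 and 100.7. Ccl27a, a skin ligand of Ccr10, gave 260.2 and 466.2, but near-identical copies of this gene can share its probes and the value is uncertain. Ccl17 (64.4 and 208.1) passed in replicate 2 only. Ccl20 (158.8 and 32.7) and Ccl22 (126.4 and 27.5) were below the limit on both arrays.

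Cx3cl1, or fractalkine, a ligand anchored in the endothelial membrane, gave 984.3 and 478.0. It was 2.11-fold higher in replicate 1, but only 1 of its 4 probe sets was above background. The others gave 100.4 and 104.3, 35.9 and 73.6, and 10.4 and 19.3. With the median of its probe sets the gene fell below the limit and the direction turned (log2 difference -0.51). Its neighbours in the gene table, the Ccr4 ligands Ccl22 and Ccl17, were not above the limit on both arrays. Xcl1, a lymphocyte ligand, was below the limit on both arrays (4.06 and 24.2).

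**Figure D2:**
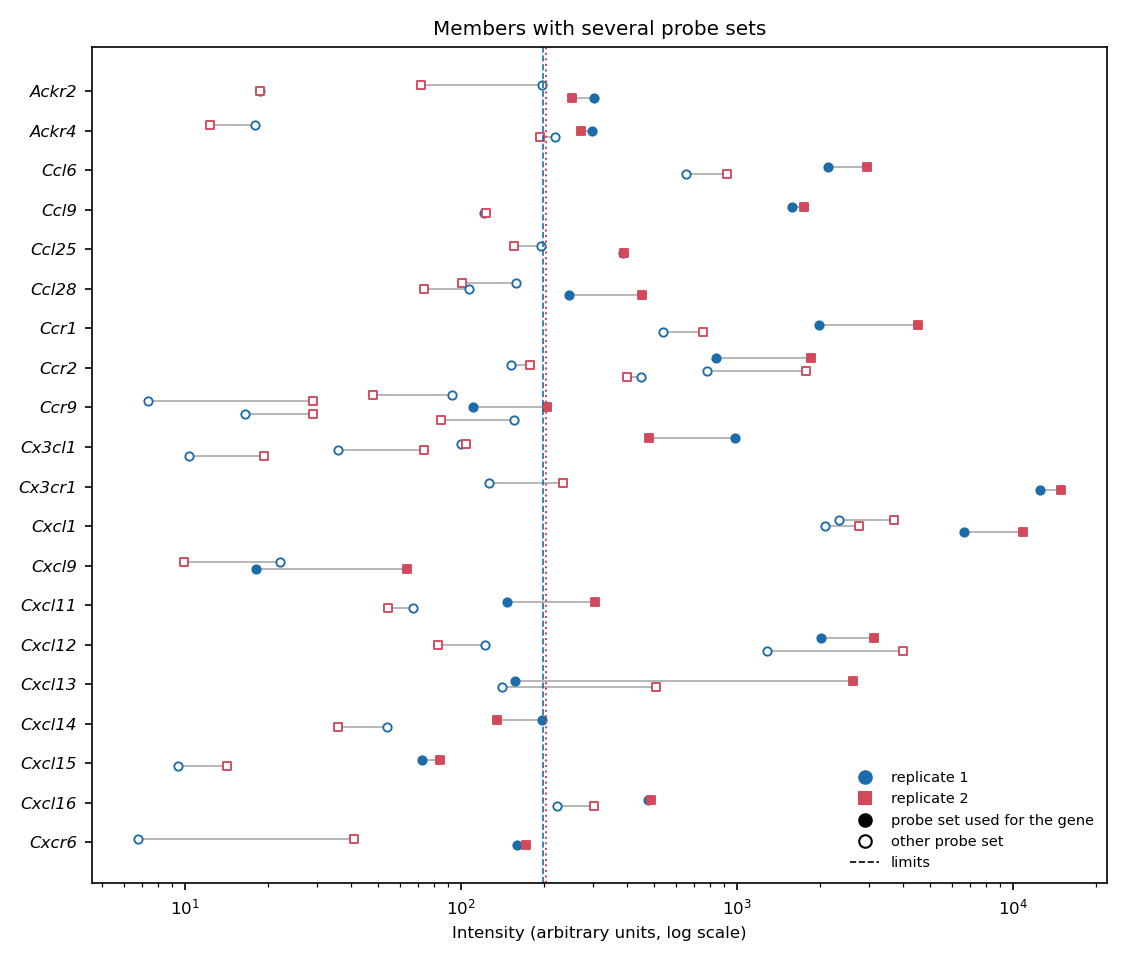
Intensity of every probe set of the 20 members with several, in arbitrary units on a log scale, for replicate 1 (blue circles) and replicate 2 (red squares), with the probe set used for the gene filled and the limits as vertical lines. Of the 20 members 9 have probe sets on both sides of the limit, among them Cx3cl1, with 1 of 4 above it.

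Of the conventional receptors, Cx3cr1, the fractalkine receptor of monocytes and macrophages, gave 12473 and 14890 and so differed little between the pools (1.17-fold). Its second probe set passed the limit in replicate 2 only (126.0 and 234.9). Ccr1, a receptor of monocytes and other myeloid cells, gave 1981 and 4521, and its second probe set gave 538.0 and 753.6. Ccr2, the receptor by which monocytes leave the blood, gave 840.7 and 1851. Its other probe sets gave 779.3 and 1784, 448.5 and 398.1, and 151.8 and 177.8. Both receptors were higher in replicate 2 with the probe set used, and 1 of the 4 probe sets of Ccr2 was higher in replicate 1.

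Cxcr4, the signalling receptor for Cxcl12, was above background at 586.9 and 670.7. Cxcr3, the receptor of interferon-induced ligands, was near the limit in replicate 1 (236.2) and higher in replicate 2 (600.4). Ccr10 gave 357.5 and 282.7. Ccr6 (166.4 and 224.7) and Ccr9 (111.0 and 205.5) passed in replicate 2 only, and the other 4 probe sets of Ccr9 were below the limit on both arrays. Receptors below it on both arrays were Cxcr2, the neutrophil receptor (26.1 and 34.4), Cxcr5 (141.5 and 157.7), Cxcr6 (160.1 and 172.5), Ccr3 (17.2 and 89.3), Ccr4 (89.9 and 120.4), Ccr7 (52.2 and 76.0), Ccr8 (7.27 and 10.5) and Xcr1 (179.7 and 95.9). Most of these are known from lymphocytes, granulocytes or dendritic cells.

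The receptors of the chromosome 9 cluster, in the order Ccr9, Cxcr6, Xcr1, Ccr1, Ccr3, Ccr2, were thus split. Ccr1 and Ccr2 were above background on both arrays and Ccr3, which lies between them, on neither.

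The atypical receptors were all above background on both arrays. Ackr3, which binds Cxcl12 and limits its supply to Cxcr4, gave 5021 and 5249 and was nearly equal in the pools (1.02-fold). Ccrl2, which presents the attractant chemerin, gave 1603 and 3085. Ackr1, the Duffy antigen receptor of venules and red cells, gave 446.7 and 375.7. Ackr2, a scavenger of inflammatory CC ligands known from lymphatic endothelium, gave 303.8 and 252.2. Ackr4, which removes Ccl19, Ccl21 and Ccl25, gave 298.3 and 273.0.

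Ackr1, Ackr3 and Ccrl2 were measured only by probe sets whose suffix marks probes that may bind more than 1 transcript. Ackr2 and Ackr4 were near the limit and rested on 1 probe set each. Other probe sets gave 195.8 and 71.4, and 18.7 and 18.7, for Ackr2. They gave 218.1 and 192.8, and 17.99 and 12.3, for Ackr4. With a limit at the 99th percentile of the sensory receptor probe sets both genes were lost, and with 2 times the limit Ackr1 was lost too.

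The question of which ligands had a receptor in the same sorted cells was put to 31 listed pairs with both genes measured. In 13 pairs both genes were above background. Taken singly, 51.5% of ligands, 52.4% of receptors and 61.2% of all genes were above background. Cxcl12 was above it together with both Cxcr4 and Ackr3, and Cx3cl1 with Cx3cr1. Ccr2 was so with Ccl2, Ccl7 and Ccl12, and Ccr1 with Ccl3, Ccl4, Ccl6 and Ccl9. The rest of the 13 were Cxcl10 with Cxcr3, and Ccl27a and Ccl28 with Ccr10. Pairs were not counted again under other limits. With 2 times the limit Ccl2, Ccl7, Ccl27a, Ccl28, Ccr10, Cxcl10 and Cxcr3 were lost, and with them their pairs.

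In 5 pairs the ligand was above background and the receptor was not above it on both arrays. They were Cxcl1 and Cxcl2 with Cxcr2, Cxcl16 with Cxcr6, Ccl24 with Ccr3 and Ccl25 with Ccr9. In 4 pairs the reverse held, with Ccl8, Ccl5, Cxcl9 and Cxcl11 as ligands, and in 9 neither gene was above background on both arrays. The sorted pools mix cell types, so both genes of a pair need not come from the same cell.

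**Figure D3:**
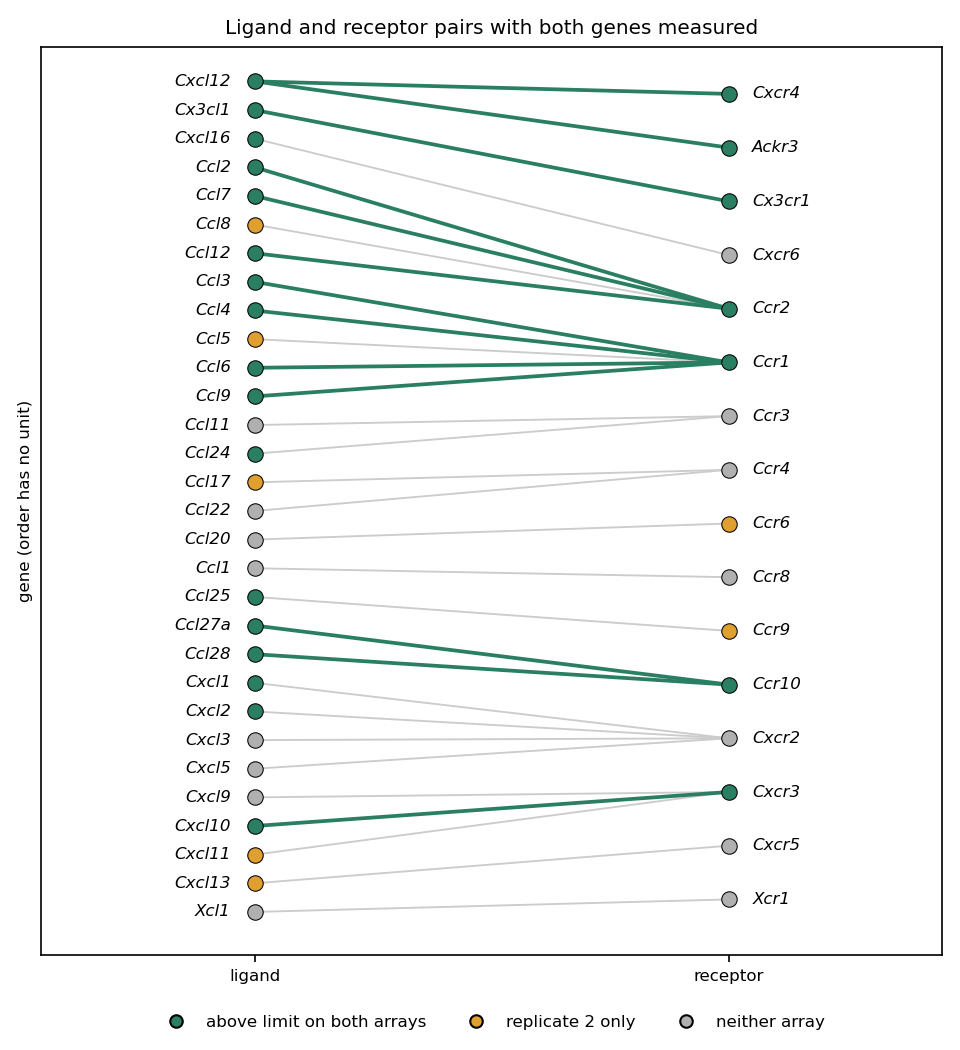
The 31 listed pairs with both genes measured, ligands at the left and receptors at the right, coloured by whether the gene was above the limit on both arrays, in replicate 2 only or on neither. Green lines join the 13 pairs with both genes above it, of which 7 lead to Ccr1 or Ccr2.

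The further genes that chemokine signalling runs through were nearly all above background, 36 of 37 measured, against 61.2% of all genes and 78% of genes with several probe sets. With 2 times the limit 32 were (52.5% of all genes), and with the median over probe sets 29 were (53.6% of all genes). The list was chosen with earlier results of these data known, so its high count is a description of these genes and not a test. Of other ligands of chemokine receptors, the platelet chemokine Pf4 gave 13136 and 13626, its relative Ppbp gave 450.8 and 1129 (2.45-fold higher in replicate 2), and Mif gave 19842 and 14335. The sheddases Adam10 (19094 and 20870), which releases Cx3cl1 and Cxcl16 from the membrane, and Adam17 (6183 and 6665) were above background, as were the other 3 of the 5 proteases. Of 15 G protein and kinase genes 14 were above it, and Plcb2 passed in replicate 1 only (211.9 and 192.8). All 7 measured genes that switch receptors off were above it, among them Arrb1 (3684 and 2339) and Arrb2 (5845 and 4735), the arrestins. All 7 measured genes of heparan sulfate, the sugar that holds chemokines on the endothelial surface, were above it, and Sdc4 was 2.06-fold higher in replicate 2 (544.3 and 1148).

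The 2 arrays were then compared. A difference here is log2 of replicate 1 minus replicate 2 after setting the median of probe sets above background equal. Among the 28 members above background 19 were higher in replicate 2, against 46.3% of all genes above background, and 9 in replicate 1, against 53.7%. The median log2 difference was -0.19, against 0.04 over all 11127 genes above background. The median size of the difference was 0.60 (log2), against 0.30 over all such genes.

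Over 2-fold differences were seen in 5 of the 28. Cxcr3 (2.49-fold), Ccr1 (2.23-fold) and Ccr2 (2.15-fold) were higher in replicate 2, which is 10.7% of the 28 against 2.6% of all genes above background. Taking the median over probe sets, Ccr1 (log2 difference -0.81) and Ccr2 (-0.48) were less than 2-fold apart and Cxcl12 (-1.26) was over 2-fold higher in replicate 2. Cx3cl1 and Ccl12 were higher in replicate 1, 7.14% against 2.22%. These 5 were also the members outside the middle 95% of all genes (-1.01 to 0.97 on the log2 scale). Of the 5 CXC ligands above background, Cxcl1 (1.60-fold), Cxcl2 (1.56-fold), Cxcl12 (1.52-fold) and Cxcl10 (1.70-fold) were higher in replicate 2, and Cxcl16 was nearly equal (1.00-fold). Ackr3 (1.02-fold), Ccl25 (1.01-fold), Ccl9 (1.08-fold) and Ccl7 (1.10-fold) also differed little.

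The 7 members above the limit on a single array (Cxcl11, Cxcl13, Ccl5, Ccl8, Ccl17, Ccr6 and Ccr9) all passed it in replicate 2, and 0 passed in replicate 1 only. Over all genes the shares were 3.36% and 3.18%. Replicate 2 alone therefore held 35 members above background and replicate 1 alone 28. Apart from Cxcl13 the bounds on these differences were small, between 1.01-fold and 1.502-fold. A further 19 members were below the limit on both arrays, between 4.06 and 196.4 in replicate 1 and between 10.5 and 172.5 in replicate 2.

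Marker genes of the cell types in the sort were read beside these differences. Over all genes 61.2% were above background on both arrays, and 78% of genes with several probe sets. All 10 endothelial genes were above background on both arrays, among them Cdh5 (22435 and 20733) and Tek (15908 and 21499). Their intensities summed to 120249 and 115138. All 9 measured macrophage and monocyte genes were above it, with Csf1r at 34030 and 36806 and Adgre1 at 4305 and 7632, with sums of 78025 and 93740 and a median log2 difference of -0.08. Of these 9 genes 7 were higher in replicate 2, and their part in the differences of Ccr1 and Ccr2 was not tested. Of mast cell and basophil genes 3 of 4 were above background, with sums of 6701 and 15585. Cpa3 (5553 and 12574) and Ms4a2 (416.1 and 2310.1) were over 2-fold higher in replicate 2 and Fcer1a was below the limit (36.3 and 120.7).

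Stromal genes differed most. Of 9 genes 8 were above background and all 8 were over 2-fold higher in replicate 2, among them Pdgfra (719.8 and 4811) and Col3a1 (14533 and 43894), with sums of 21854 and 73023. Of 6 mural genes 4 were above it, with sums of 6562 and 11254. The part of stromal, mural or mast cell RNA in the differences of Cxcl12, Cxcl13 and the receptors was not tested. Of 10 genes of dissociation and inflammation 9 were above background, with sums of 154929 and 181875. Tnf (304.6 and 258.6), Il1b (755.7 and 752.2) and the NF-kB inhibitor Nfkbia (42156 and 46206) were above it, and Il6 passed in replicate 2 only (113.0 and 260.8). The part of dissociation in the levels of Cxcl1 and Cxcl2 was not tested.

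Of 5 measured T, B and NK cell genes 0 were above background on both arrays, and Cd3g passed in replicate 2 only (130.3 and 255.1). Of 6 neutrophil genes 2 were above it, S100a8 (1079 and 817.2) and Mpo (993.8 and 918.3), while S100a9 and Elane were below it on both arrays. Dendritic genes reached 3 of 4, arterial genes 5 of 6, platelet genes 3 of 4, erythroid genes 2 of 3 and nephron genes 2 of 8. These lists are short, and 61.2% of all genes were above background. The dendritic gene Itgax passed in replicate 1 only (275.4 and 198.1). Of the erythroid genes, Hbb-y gave 55397 and 48789, and Hba-x was 2.02-fold higher in replicate 1 (972.9 and 491.8). The platelet genes above background were Itga2b (653.2 and 813.4) and the chemokines Pf4 and Ppbp, which were also counted among the partner genes. Gp9 was below the limit on both arrays (19.6 and 86.8).

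**Figure D4:**
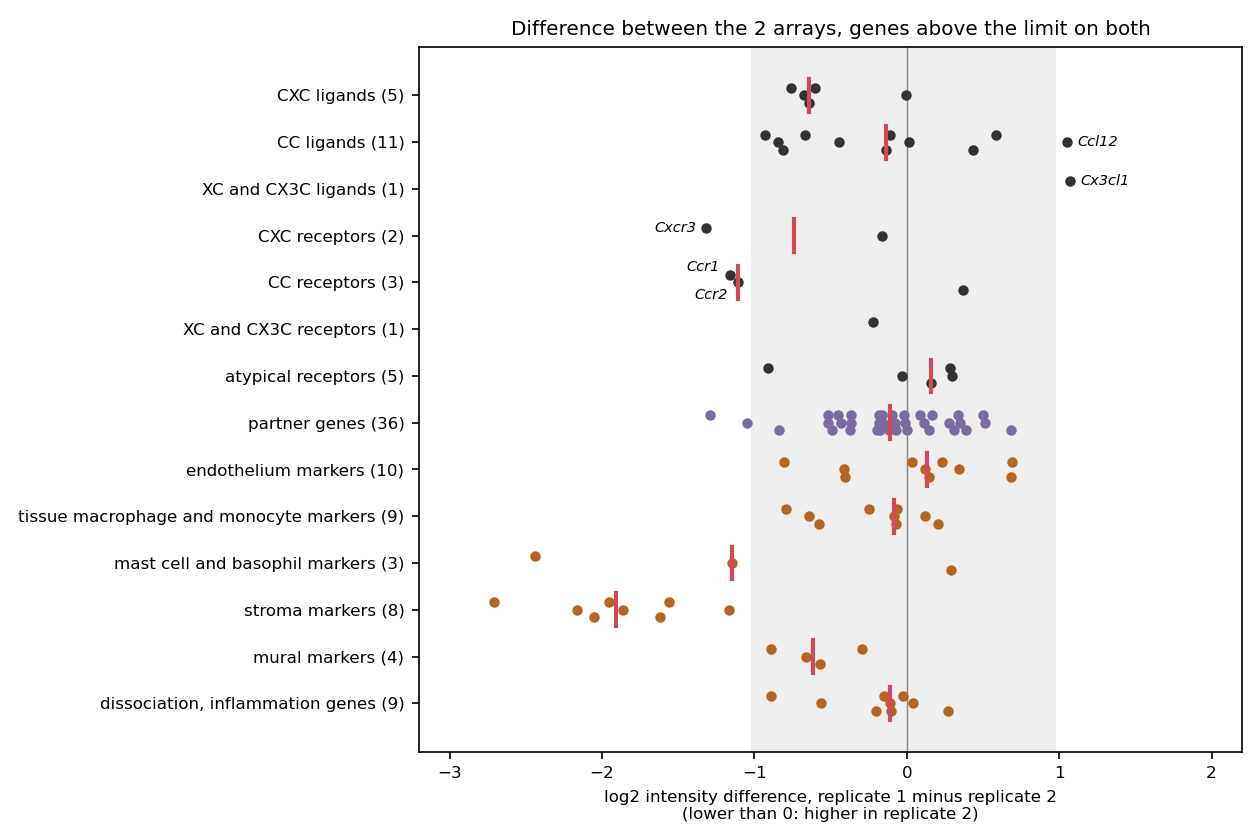
Log2 intensity difference, replicate 1 minus replicate 2, of each gene above the limit on both arrays (dots), by class of chemokine member, for partner genes and for marker lists, with medians as red marks, numbers of genes in brackets and the middle 95% of all genes above the limit in grey. Stromal markers all lie left of -1.01, and of the members Cxcr3, Ccr1, Ccr2, Ccl12 and Cx3cl1 lie outside the grey band.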

How the data were processed

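RNA of 2 pools of sorted cells was measured on 1 array each. The authors deposited 1 intensity per probe set on a linear scale, and the submitters' processing notes name GCOS, the scanner software, without a version. The arrays had been scaled before deposit, since their means without the lowest and highest 2% of values were equal. The paper's methods describe another array type and amplification, so they were not taken for these arrays. The number of arrays limits the precision.

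Of 45101 probe sets, 34945 with 1 gene in the platform annotation, without 64 array controls, were used, covering 18193 genes. All 54 members matched a current mouse gene table (GRCm38.p6) by identifier. Limits, the choice of probe set and centring (offset -0.03 log2) were computed in Python 3.11.15 with pandas 2.3.3. Centring and the size of planted differences were checked on simulated arrays. The choice of probe set was not checked there, and the share of sensory receptor probe sets above the limit is fixed by its definition. A bound on a difference takes the limit as the level on the dimmer array. Members, gene lists and pairs were chosen with earlier results of these data known. Named were all members above the limit on 1 or both arrays and the receptors or ligands listed with them. Of the other lists only some leading genes, some exceptions and some genes that differed over 2-fold were named. Some other genes, such as Tnf, Il1b and Arrb1, were named after their values were seen. Protein sequences were not used here. Motifs were chosen after the values were seen. Alternatives were other limits (100, the 99th percentile, 2 times the limit), other rules for probe sets, quantile normalization, no centring and each array alone.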

Additional observations from a re-analysis of the deposited data

Results flagged for a closer look

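Signal was also present in probe sets left out of the counts because they are annotated to several genes. A probe set naming Ccl21a to Ccl21d, ligands of Ccr7 known from lymphatic endothelium, was above the limit on both arrays, with 760.29 in replicate 1 and 878.8 in replicate 2. A probe set naming Ccl27a and Ccl27b gave 247.86 and 309.0, also above the limit on both. These values cannot be given to 1 gene.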

How the results depend on the processing

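Most counts held within 1.5 times under the alternatives run. With 2 times the limit, members above background fell to 17, with 11 ligands and 6 receptors, while the share of all genes fell from 61.2% to 52.5%. With a limit of 100 members reached 37. Taking the median over probe sets, 1 member was over 2-fold higher in replicate 1, in place of 2, and the log2 difference of Cx3cl1 turned from 1.07 to -0.51. Of 192 log2 differences of single members over the alternatives 187 moved by less than the spread of all genes. The near-zero values of Ccl25 and Cxcl16 changed sign in some settings. The other limits and no centring shift all members by the same small amount, so values under those settings could not move far. The median over probe sets could change only members with several probe sets. With it 23 of the 28 members moved less than that spread, including those with 1 probe set. Those that moved more were all under that median, where Ccl28 also turned, from -0.85 to 0.69. Ackr2 went from 0.30 to 1.49, Ccr2 from -1.11 to -0.48 and Cxcl12 from -0.60 to -1.26. Ccr2 and Ccr1 (-0.81) were then no longer over 2-fold apart and Cxcl12 was. Without suffixed probe sets 24 of 47 members were above background. The median log2 difference of members above background ran from -0.46 to -0.18 over all settings. Each array alone gave 28 to 35 members, 17 to 22 ligands, 11 to 13 receptors and 36 to 37 partner genes. Partner genes above background fell to 32 with 2 times the limit and to 29 with the median over probe sets. No paired analysis was possible because there is 1 group. Signals within a few times the limit, such as those of Ackr2, Ackr4, Ccl28 and Cxcr3, are the least certain.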

Other observations

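Probe sets that name Ccl19 among several genes (19.7 and 25.7) and a second one that names Ccl27a (103.0 and 181.3) were below the limit on both arrays.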
